A study of Mus musculus with 11 samples.

Results

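The 38 Hox genes described here were taken from the gene symbols made of Hox, a cluster letter from a to d and a number, of which the deposited count table of 55228 gene symbols held 39. Of the 38, cluster A held 10, cluster B 10, cluster C 9 and cluster D 9. Hox genes encode homeodomain transcription factors that set position along the body axis, and in each cluster they lie in the order of their activation in the embryo, from the low-numbered anterior genes at the 3′ end to the high-numbered posterior genes at the 5′ end. In embryonic stem cells the clusters are known to be held silent by Polycomb complexes. CTCF, which folds chromosomes into loops through its zinc fingers on DNA, binds at several places within the clusters and is known there as a boundary between active and repressed genes.

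The RNA came from EN52.9.1 (CTCF-AID), a line of mouse embryonic stem cells grown with serum and leukemia inhibitory factor, in which the endogenous CTCF carries a degron that the auxin analogue indole-3-acetic acid activates. All groups were made in this line, so the untreated cells carried the degron too. EV untreated cells (3 libraries) received no auxin and are labelled wild-type. EV auxin cells (2 libraries) received 500 µM auxin and are labelled as depleted of endogenous CTCF. FL auxin cells (3 libraries) received auxin and reintroduced FL CTCF, and H373R auxin cells (3 libraries, titled ZF4) received auxin and reintroduced CTCF with the H373R substitution. Another replicate of EV auxin, numbered 3, was not analysed here. The duration of auxin and the vector of the reintroduced CTCF are not given in the sources used here. Nothing says that libraries of a group came from separate cultures, so p-values measure the spread between these libraries, which may be technical.

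The total count per library was 13465241 to 29902246. Ctcf RNA was measured at 294 to 344 CPM (counts scaled to library size) in EV untreated, 359 and 364 in EV auxin, 328 to 350 in FL auxin and 306 to 330 in H373R auxin, with no call between the groups compared below, and since the degron acts on the protein this does not check depletion. The FL auxin and H373R auxin libraries were not above those of EV auxin, so expression of the reintroduced CTCF is not checked here either. The 6 markers of pluripotent cells summed to 4558 to 4951 CPM in EV untreated, 4390 and 4614 in EV auxin, 4447 to 4516 in FL auxin and 4280 to 4359 in H373R auxin. Against EV untreated, 0 were called higher and 2 lower in EV auxin, 1 and 3 in FL auxin, and 0 and 4 in H373R auxin. Of all tested genes 20.7%, 36.9% and 44.4% were called in these comparisons, in either direction. EV untreated replicate 1 stood apart from its group. Its counts differed from those of replicates 2 and 3 by a chi-square of 16.0 and 15.1 per degree of freedom, against 1.96 between those replicates, and its deviation from the group mean followed the GC content of the genes (r = 0.56 across 16242 genes, which are not independent). The counts of called Hox genes are therefore given with and without it.

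Promoter windows from 250 bases before to 50 bases after the start were at hand in RefSeq (GRCm38.p6) for 24 promoters of 22 Hox genes, 9 of them tested below. Because the series concerns CTCF and G-quadruplexes, 4-stranded structures of guanine runs, the windows were searched on both strands for 4 runs of GGG with 1 to 7 bases between them. Of the Hox promoters, 7 of 24 (29.2%) held a match, beside 18.5% of all 32851 promoters and 27.9% of the 14979 promoters of tested genes. The core motif of CTCF, searched on both strands, was in 0 of 24 Hox promoters, in 1.15% of all promoters and in 1.78% of those of tested genes. At such shares 24 windows are too few to show a difference. The guanines of the motif can overlap a run of GGG. A match is a description of letters and not a bound site. Below are the 250 bases upstream of Hoxd13, the tested Hox gene whose window held matches to the guanine runs, at chr2:74667975-74668224 on the plus strand, and of Hoxa11, which had the largest difference between FL auxin and EV auxin among the tested Hox genes, at chr6:52245811-52246060 on the minus strand. Both are written 5′ to 3′ in the direction of the gene, and capitals mark the matches on either strand, which cover 91 bases of Hoxd13 in 4 stretches and 0 bases of Hoxa11.
Hoxd13: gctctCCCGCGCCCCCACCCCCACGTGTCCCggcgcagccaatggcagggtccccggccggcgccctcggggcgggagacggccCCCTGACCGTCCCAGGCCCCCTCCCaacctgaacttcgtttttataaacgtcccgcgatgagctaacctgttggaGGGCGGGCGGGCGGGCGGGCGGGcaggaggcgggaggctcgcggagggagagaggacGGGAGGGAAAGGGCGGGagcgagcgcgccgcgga
Hoxa11: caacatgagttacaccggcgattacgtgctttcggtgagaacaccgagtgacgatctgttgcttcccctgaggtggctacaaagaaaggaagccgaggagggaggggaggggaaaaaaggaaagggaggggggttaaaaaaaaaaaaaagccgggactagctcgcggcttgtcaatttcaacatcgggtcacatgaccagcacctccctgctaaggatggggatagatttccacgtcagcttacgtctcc
The Hoxd13 window was 74.4% G and C and the Hoxa11 window 52.0%. The other 6 Hox genes with a match were Hoxa6, Hoxa10, Hoxa13, Hoxb1, Hoxd9 and Hoxd12, all below the count minimum for a test.

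Hox transcripts were scarce in every group. Together the 38 genes gave 253 to 402 counts per library in EV untreated, 288 and 429 in EV auxin, 314 to 467 in FL auxin and 531 to 692 in H373R auxin. Scaled to depth, the sums were 10.9 to 13.4 CPM in EV untreated, 16.4 and 17.8 CPM in EV auxin, 22.3 to 23.8 CPM in FL auxin and 23.7 to 26.6 CPM in H373R auxin. EV untreated was the lowest and EV auxin the next, without overlap, while FL auxin and H373R auxin overlapped. In bulk RNA a higher sum from more cells that transcribe a gene and one from more RNA per cell cannot be told apart. Of the 38 genes, 26 to 34 had at least 1 count in a library.

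**Figure D1:**
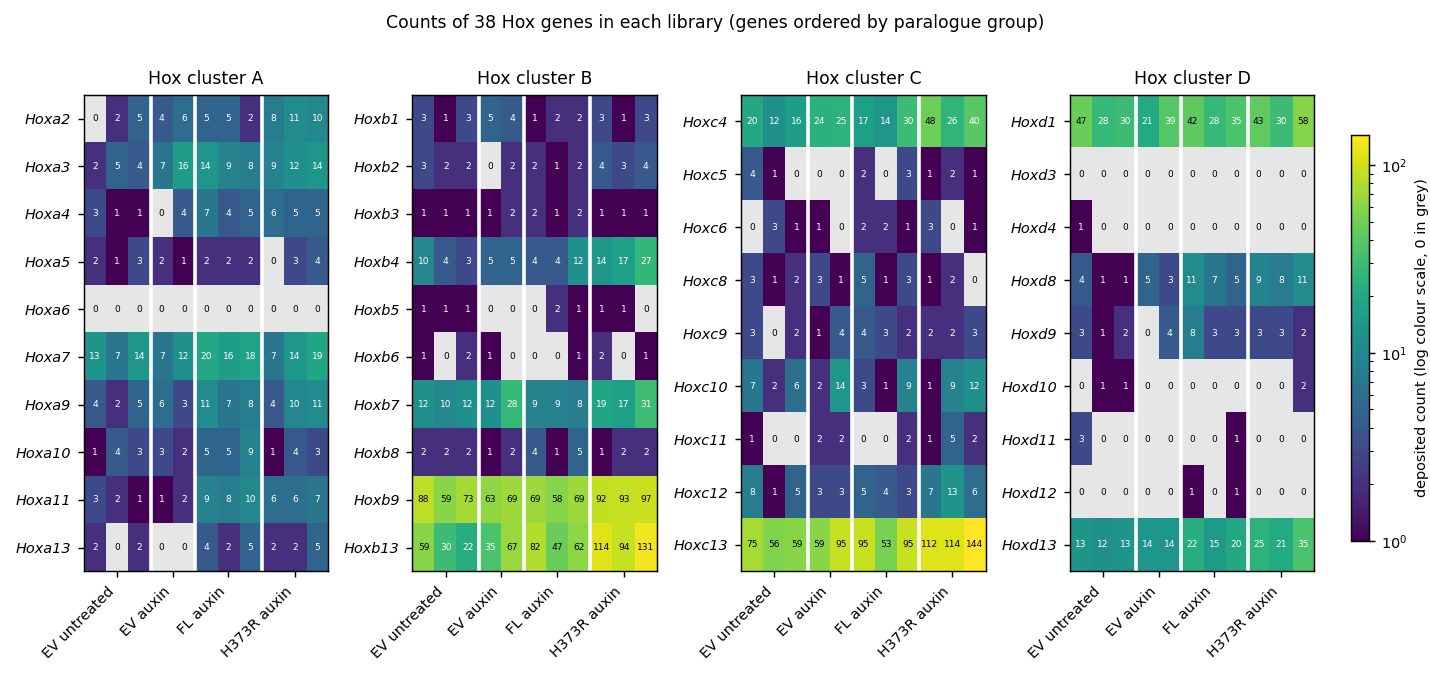
Deposited counts of 38 Hox genes (rows, by paralogue group from 3′ to 5′) in the 11 libraries (columns, by group), with a log colour scale and counts of 0 in grey. Hoxb9 has 58 to 97 counts and Hoxb13 22 to 131, and 10 of the untested rows hold at most 3 counts in every library.

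Many members were near zero. Hoxa6 and Hoxd3 had no count in any library, which allows up to 3 counts, or 0.0999 to 0.228 CPM depending on the library. Hoxd3 shares 62.3% of its exon bases with genes on the same strand and Hoxd4, with 1 count in all, shares 52.3%, so their counts are uncertain. Counting Hoxa6 and Hoxd3, 10 untested members had at most 3 counts in every library, the others being Hoxb3, Hoxb5, Hoxb6, Hoxc6, Hoxd4, Hoxd10, Hoxd11 and Hoxd12. In all 25 members stayed below the count minimum, which was 10 counts at median depth in at least 2 libraries, and 13 were tested: Hoxa3, Hoxa7, Hoxa9, Hoxa11, Hoxb4, Hoxb7, Hoxb9, Hoxb13, Hoxc4, Hoxc13, Hoxd1, Hoxd8 and Hoxd13. Of these, 5 (Hoxb9, Hoxb13, Hoxc4, Hoxc13 and Hoxd1) reached the minimum in every group. The other 8 passed through some groups only, and such a gene is tested because it is high in one of them, so counts over the 13 are given as a description.

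Levels between genes were compared per length, in TPM (transcript level scaled to length and to library size). Averaged over the 11 libraries, Hoxc13 had 6.04 TPM, Hoxb13 5.22 TPM, Hoxb9 5.03 TPM and Hoxd1 3.32 TPM. The member with the highest mean TPM thus stood at the 3′ end in cluster D (Hoxd1) and at the 5′ end in clusters B and C (Hoxb13 and Hoxc13). The 10 genes described of cluster A were each lower, with Hoxa7 at 0.818 TPM the highest of them.

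In clusters C and D the member in second place was the gene at the opposite end, Hoxc4 with 1.65 TPM and Hoxd13 with 1.29 TPM. In cluster B it was Hoxb9, a central gene, whose TPM exceeded that of Hoxb13 in EV untreated (4.14 ± 0.157 against 2.40 ± 0.975, SD, n = 3) and fell short of it in H373R auxin (5.83 ± 0.456 against 8.10 ± 0.572, SD, n = 3). Hoxb1, at the 3′ end of cluster B, had 1 to 5 counts per library. In EV untreated the first and last gene held 88.6% to 93.5% of the TPM of cluster D, 71.2% to 87.4% of that of cluster C and 21.9% to 36.6% of that of cluster B. This grouping by ends was chosen after the values were seen and has no test.

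The effect of auxin was asked with EV auxin against EV untreated. Of the 38 members 13 were tested. By edgeR's quasi-likelihood test, with an adjusted p under 0.05 over 16420 genes, 3 of the 13 were called higher in EV auxin and 0 lower: Hoxa3, Hoxb7 and Hoxc13. Among the 5 members that reached the minimum in every group, 1 was called higher and 0 lower. Over all tested genes 20.7% were called in either direction, 11.3% higher and 9.40% lower.

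Hoxa3, which acts in the pharyngeal arches, rested on few reads, with 2, 5 and 4 counts in EV untreated and 7 and 16 in EV auxin. Its level rose by 1.91 ± 0.488 on the log2 scale (SE, edgeR adjusted p = 0.0111), and 27.1% of its exon bases are shared with other genes of either strand. Hoxb7, a trunk gene, had 0.399, 0.489 and 0.441 CPM without auxin and 0.684 and 1.16 CPM with it, a rise of 1.11 ± 0.332 (adjusted p = 0.0263). Hoxc13, a posterior gene known for its role in hair and nails, had 2.50, 2.74 and 2.17 CPM without auxin and 3.36 and 3.94 CPM with it, a rise of 0.59 ± 0.152 (adjusted p = 0.0119). In none of these 3 genes did the libraries of the 2 groups overlap. Nor did they in Hoxb13 and Hoxc4, which were not called, and the share over all tested genes is not given here.

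Hoxb13, a posterior gene of the tail bud and prostate, and Hoxc4, at the 3′ end of cluster C, missed the threshold narrowly. Hoxb13 had 1.96, 1.47 and 0.808 CPM in EV untreated and 2.00 and 2.78 CPM in EV auxin (log2 fold change 0.77 ± 0.270, adjusted p = 0.0548). Hoxc4 had 0.666, 0.587 and 0.588 CPM in EV untreated and 1.37 and 1.04 CPM in EV auxin (0.93 ± 0.324, adjusted p = 0.0544). Without EV untreated replicate 1 both were called, at adjusted p = 0.00129 and 0.0407, which made 5 members. Hoxb9 stayed within 2.68 to 2.93 CPM without auxin and had 3.59 and 2.86 CPM with it (0.17 ± 0.161). Hoxd1 had 1.10 to 1.56 CPM without auxin and 1.20 and 1.62 CPM with it, so its groups overlapped.

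The count of called members fell from 3 to 0 without EV auxin replicate 2 (3 at an unadjusted p under 0.05 in edgeR), where Hoxa3, Hoxb7 and Hoxc13 had adjusted p of 0.245, 0.486 and 0.219. It was also 0, with 4 at an unadjusted p under 0.05, when only the libraries of both groups were fitted. With DESeq2 2 members were called, Hoxb7 being left out at an adjusted p of 0.105, and with limma on log2(TPM + 1) 1 was.

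**Figure D2:**
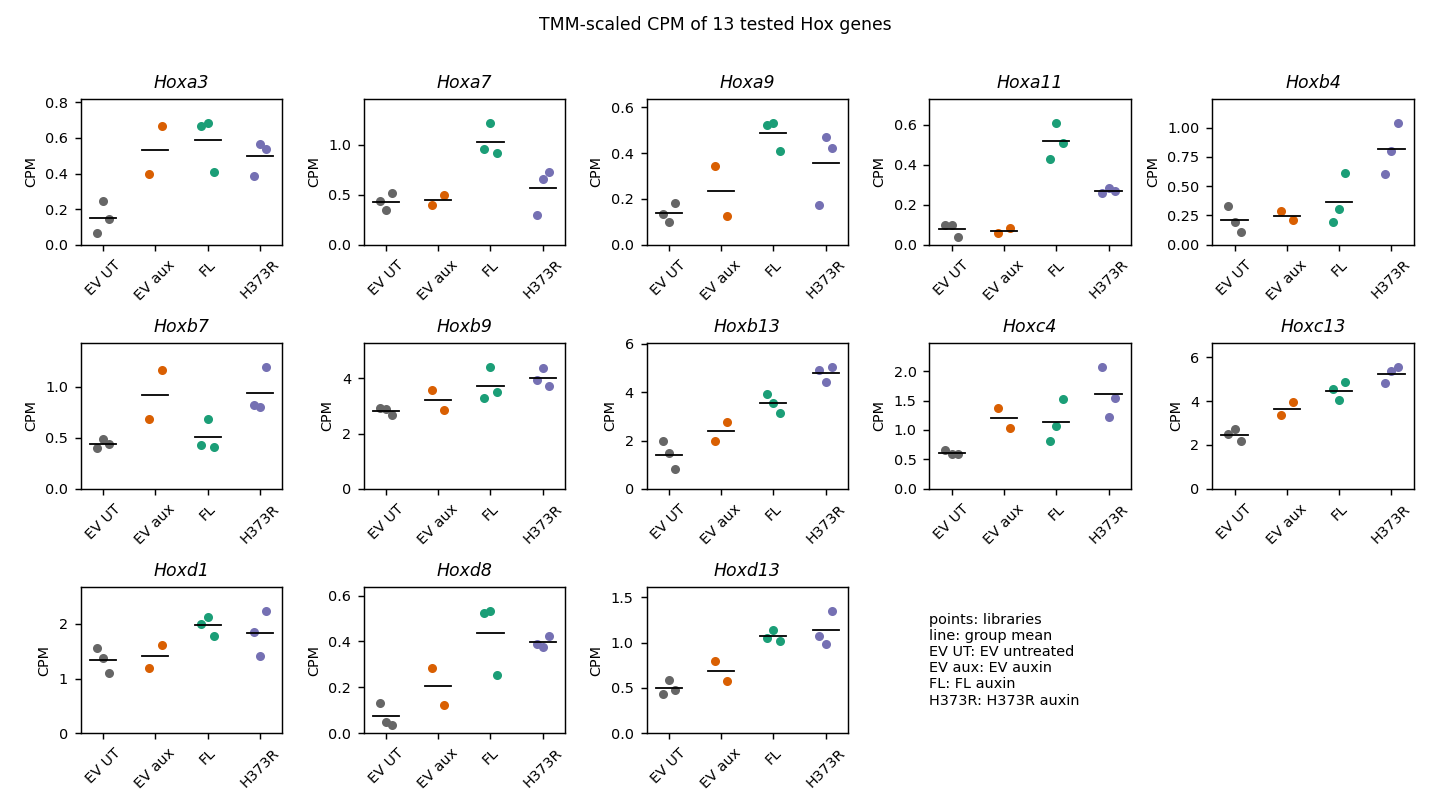
TMM-scaled CPM (y axis, from 0) of 13 tested Hox genes in each library, with 1 point per library and a line at the group mean. Hoxc13 lies at 2.17 to 2.74 CPM in EV untreated and at 3.36 CPM or more in all auxin libraries, and Hoxa11 is highest in the 3 FL auxin libraries.

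The effect of reintroduced FL CTCF was asked with FL auxin against EV auxin. Of the 13 tested members, 2 were called higher in FL auxin and 0 lower, Hoxa11 and Hoxa7, beside 24.5% of all tested genes in either direction, 11.1% higher and 13.4% lower. Among the 5 members that reached the minimum in every group, 0 were called. Hoxa11, a posterior gene of limb and uterus (chr6:52242106-52245810, minus strand), had 0.0570 and 0.0830 CPM in EV auxin and 0.429, 0.608 and 0.510 CPM in FL auxin. In counts these were 1 and 2 against 9, 8 and 10, so the groups did not overlap, and the level rose by 2.71 ± 0.539 on the log2 scale (edgeR adjusted p = 0.00207). In EV untreated it had 0.0367 to 0.0999 CPM, close to the EV auxin libraries. Its upstream sequence is the second of those printed above.

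Exons of Hoxa11 overlap the antisense Hoxa11os over 35.0% of their bases, and whether counting used strand is not given in the sources used here. Hoxa11os itself had 0 to 0.110 CPM in the EV untreated libraries, 0.0570 and 0 in EV auxin, 0.286 to 0.408 in FL auxin and 0.0385 to 0.172 in H373R auxin. It was too low to test, and its part in the counts of Hoxa11 was not tested. Hoxa7, a trunk gene, had 0.399 and 0.498 CPM in EV auxin and 0.954, 1.22 and 0.918 CPM in FL auxin, a rise of 1.14 ± 0.365 (adjusted p = 0.0338). Its exons overlap the antisense Hoxaas3 over 20.4% of their bases, and Hoxaas3 had at most 4 counts in any library.

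The call of Hoxa7 was lost without either EV auxin library (adjusted p = 0.166 without replicate 1 and 0.126 without replicate 2), without any of the FL auxin libraries (0.0514 to 0.0829) and with DESeq2 (0.0855). Hoxa11 passed the count minimum through 2 FL auxin libraries alone, replicates 2 and 3, and without either it was too low to test. DESeq2 gave it no adjusted p. Without EV untreated replicate 1 the count was 4, with Hoxb13 higher (adjusted p = 0.0272) and Hoxb7 lower (0.0423).

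None of the genes that auxin had raised was called lower in FL auxin. Hoxc13 had 4.53, 4.02 and 4.84 CPM (0.29 ± 0.145, adjusted p = 0.163). Hoxb7 had 0.429, 0.683 and 0.408 CPM, all below the EV auxin libraries and with a log2 fold change of -0.97 ± 0.351 that missed the threshold (adjusted p = 0.0565). Besides without EV untreated replicate 1, that of Hoxb7 was past the threshold without EV auxin replicate 1 (adjusted p = 0.0433) and without FL auxin replicate 2 (0.0447). Hoxa9 and Hoxd8, both central, had estimates of 1.14 ± 0.522 and 1.13 ± 0.529 with adjusted p of 0.126 and 0.135, each on 3 to 11 counts per library over the 2 groups.

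The effect of the H373R form was asked with H373R auxin against EV auxin. Of the 13 tested members, 3 were called higher in H373R auxin and 0 lower, Hoxb13, Hoxc13 and Hoxb4, beside 21.7% of all tested genes in either direction, 10% higher and 11.7% lower. Among the 5 members that reached the minimum in every group, 2 were called higher and 0 lower. Hoxb13 (chr11:96194316-96197447, plus strand) had 4.90, 4.43 and 5.04 CPM, against 2.00 and 2.78 CPM in EV auxin, a rise of 0.98 ± 0.224 on the log2 scale (edgeR adjusted p = 0.00621). Hoxb4, an anterior gene also known from blood stem cells, had 0.602, 0.802 and 1.04 CPM against 0.285 and 0.208 CPM, a rise of 1.75 ± 0.493 (adjusted p = 0.0193). In counts Hoxb4 had 14, 17 and 27 in H373R auxin and 5 in each EV auxin library. It reached the count minimum in 3 H373R auxin libraries, 1 FL auxin library and 0 EV auxin libraries. Its test thus rests on a filter passed mainly through the group where it is high.

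Hoxc13 had 4.82, 5.38 and 5.54 CPM in H373R auxin, a rise of 0.51 ± 0.137 over EV auxin (adjusted p = 0.0155). In all 3 genes every H373R auxin library was above both EV auxin libraries. The same was so for Hoxa11, Hoxb9, Hoxd8 and Hoxd13, which were not called. The share of all tested genes with such a separation is not given here. Hoxd13 had 1.08, 0.991 and 1.35 CPM against 0.798 and 0.581 CPM and missed the threshold (0.76 ± 0.265, adjusted p = 0.0520). Hoxa11, at 0.258, 0.283 and 0.269 CPM, had an estimate of 1.83 ± 0.593 on 6, 6 and 7 counts and missed it as well (adjusted p = 0.0592).

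These 3 calls depended on the 2 EV auxin libraries. Without EV auxin replicate 1 edgeR called 0 members, with 6 at an unadjusted p under 0.05, and the adjusted p were 0.0872 for Hoxb13, 0.142 for Hoxc13 and 0.0839 for Hoxb4. Without EV auxin replicate 2 it called 2, without H373R auxin replicate 3 it called 1, and without EV untreated replicate 1 it called 5, with Hoxa11 and Hoxd13 added.

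**Figure D3:**
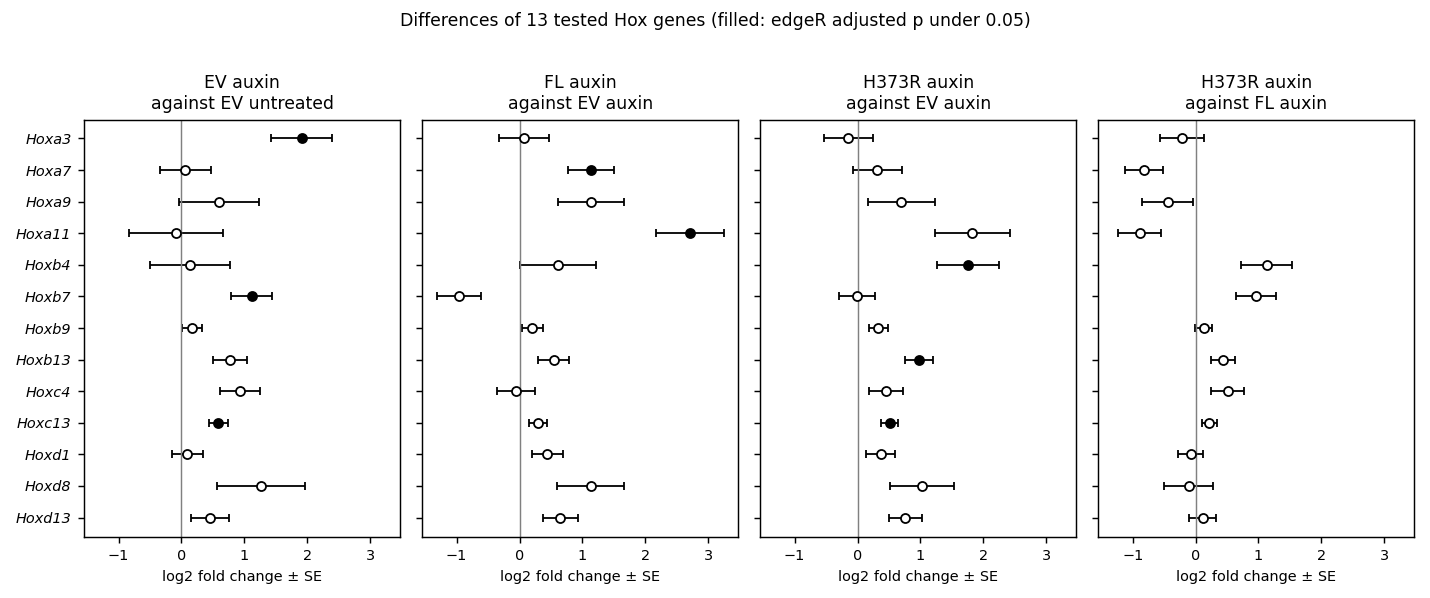
Log2 fold changes (x axis) with the standard error of 13 tested Hox genes (rows) in 4 comparisons, with filled points where edgeR's adjusted p was under 0.05. Filled points lie to the right of 0 in the first 3 panels, and the panel of H373R auxin against FL auxin has none.

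H373R auxin and FL auxin were compared directly, since effects against the shared EV auxin libraries do not show a difference between them. edgeR called 0 of the 13 tested members, beside 5.96% of all tested genes in either direction, 3.14% higher and 2.82% lower. At an unadjusted p under 0.05 there were 5 members, beside 20.6% of all tested genes. DESeq2 and limma on log2(TPM + 1) also called 0, with 3 and 4 at an unadjusted p under 0.05. The 5 in edgeR were Hoxb4, Hoxb7 and Hoxb13, with estimates above 0, and Hoxa7 and Hoxa11, with estimates below 0.

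Hoxa7 had 0.301, 0.660 and 0.731 CPM in H373R auxin, all below the 3 FL auxin libraries (log2 fold change -0.82 ± 0.301, adjusted p = 0.127, 95% interval -1.41 to -0.23). Hoxa11 was likewise below all FL auxin libraries (-0.89 ± 0.344, adjusted p = 0.205, 95% interval -1.56 to -0.21). For Hoxb7, with 0.817, 0.802 and 1.19 CPM in H373R auxin, the order was the opposite (0.96 ± 0.314, adjusted p = 0.0886, 95% interval 0.34 to 1.57). These estimates stood on opposite sides of 0 for genes of cluster A and of cluster B, and none passed the test.

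Hoxb4 (1.13 ± 0.406, adjusted p = 0.121) overlapped between the groups, since FL auxin replicate 3 had 0.612 CPM and the lowest H373R auxin library 0.602 CPM. Hoxb13 (0.44 ± 0.190, adjusted p = 0.206) was above all FL auxin libraries in each H373R auxin library. Without EV untreated replicate 1 the count was 1, Hoxb4 (adjusted p = 0.0475), and with the libraries of both groups alone it was 1, Hoxb13 (0.0348).

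Against EV untreated cells, more members differed in both groups with reintroduced CTCF, and these comparisons share the EV untreated libraries. In FL auxin 9 of the 13 tested members were called higher and 0 lower, beside 36.9% of all tested genes in either direction, 17.7% higher and 19.2% lower. The other 4 tested members were Hoxb4, Hoxb7, Hoxb9 and Hoxd1. In H373R auxin 11 were called higher and 0 lower, beside 44.4% in either direction, 22.3% higher and 22.1% lower, and the other 2 tested members were Hoxa7 and Hoxd1. Without EV untreated replicate 1 the counts were 10 and 11. Among the 5 members that reached the minimum in every group, 3 were called higher in FL auxin and 4 in H373R auxin, and 0 lower. Hoxa9 was called in H373R auxin (edgeR adjusted p = 0.0419) though its groups overlapped, and it passed in 8 of 19 alternatives described below. Hoxc4 in FL auxin (edgeR adjusted p = 0.0342) passed in 14 of 23.

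Hoxb13 was 1.31 ± 0.231 higher than in EV untreated on the log2 scale in FL auxin (edgeR adjusted p = 0.000432) and 1.75 ± 0.209 higher in H373R auxin (8.83e-06). Hoxc13 was 0.88 ± 0.135 higher in FL auxin (0.000147) and 1.10 ± 0.125 higher in H373R auxin (5.76e-06). Both had the same order of group means, from EV untreated through EV auxin and FL auxin to H373R auxin.

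Cluster D had its calls in these comparisons. Hoxd13, a gene of digits and hindgut, had 0.433, 0.587 and 0.477 CPM in EV untreated and 1.05, 1.14 and 1.02 CPM in FL auxin (1.11 ± 0.255, edgeR adjusted p = 0.00323), and in H373R auxin it was 1.22 ± 0.237 higher (0.000678). Hoxd8 had 4, 1 and 1 counts in EV untreated, 11, 7 and 5 in FL auxin and 9, 8 and 11 in H373R auxin. Its rises of 2.39 ± 0.539 (adjusted p = 0.00281) and 2.28 ± 0.520 (0.00226) therefore rest on a group with few reads. Hoxd8 passed the count minimum through 2 FL auxin libraries alone. Hoxb9 was higher in H373R auxin by 0.50 ± 0.134 (adjusted p = 0.00665), at 3.73 to 4.39 CPM. Hoxd1, at 1.78 to 2.13 CPM in FL auxin and 1.42 to 2.23 CPM in H373R auxin, was called in no comparison.

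The clusters were compared by the sum of their members, as values without a test. The 10 genes described of cluster A summed to 1.19 ± 0.199 CPM in EV untreated (SD, n = 3), 1.81 ± 0.140 in EV auxin (n = 2), 3.83 ± 0.512 in FL auxin (n = 3) and 2.67 ± 0.715 in H373R auxin (n = 3). FL auxin had the highest mean, and the log2 ratio of H373R auxin to FL auxin was -0.52. All 3 FL auxin libraries, at 3.42 to 4.40 CPM, were above all 3 H373R auxin libraries, at 1.85 to 3.16 CPM. Without Hoxa7 this separation was lost, since the lowest FL auxin library had 2.499 CPM and the highest H373R auxin library 2.500 CPM.

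Cluster B summed to 5.27 ± 0.780, 7.22 ± 0.294, 8.70 ± 0.685 and 11 ± 0.360 CPM. Cluster C summed to 3.70 ± 0.344, 5.70 ± 0.396, 6.61 ± 0.842 and 7.92 ± 0.311 CPM. In both the H373R auxin libraries were above all others. Without Hoxb9 they remained so in cluster B (6.41 to 7.69 CPM against 4.84 to 5.09 CPM in FL auxin). Without Hoxc13 they did not in cluster C, where H373R auxin at 2.500 to 2.78 CPM overlapped FL auxin at 1.81 to 2.70 CPM. Cluster D summed to 2.06 ± 0.321, 2.39 ± 0.148, 3.78 ± 0.405 and 3.51 ± 0.617 CPM. Its FL auxin and H373R auxin libraries overlapped.

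**Figure D4:**
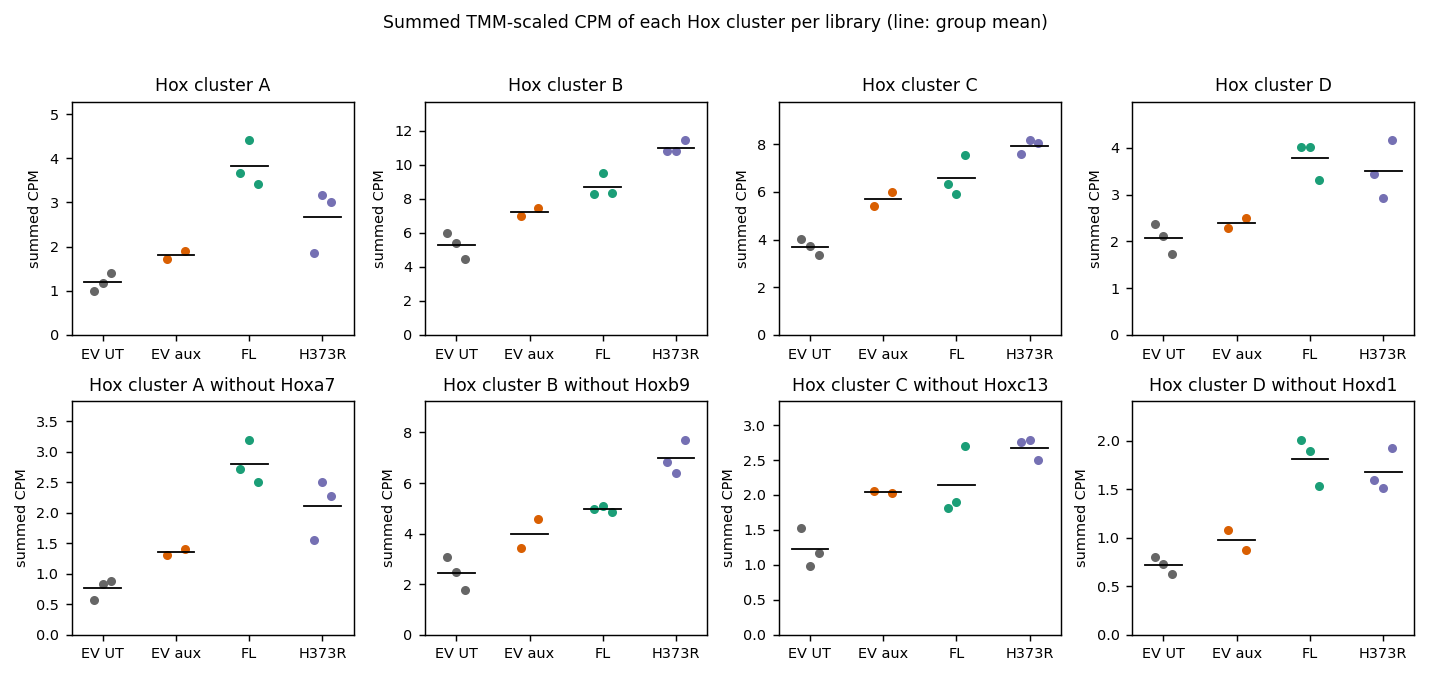
Summed TMM-scaled CPM (y axis, from 0) of each Hox cluster per library, for the genes described (top), and of the same cluster without its member with the most counts (bottom), with a line at the group mean. Cluster A is highest in FL auxin (3.42 to 4.40 CPM), and clusters B and C are highest on average in H373R auxin in both rows.

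By position, 11 anterior members (paralogue groups up to 4) summed to 2.71 ± 0.306 CPM in EV untreated, 4.05 ± 0.322 in EV auxin, 4.88 ± 0.353 in FL auxin and 5.69 ± 0.631 in H373R auxin. The 15 central members (groups 5 to 9) summed to 4.47 ± 0.163, 5.54 ± 0.385, 7.34 ± 0.968 and 6.89 ± 0.597 CPM. The 12 posterior members (groups 10 to 13) summed to 5.04 ± 0.834, 7.52 ± 1.04, 10.7 ± 0.413 and 12.5 ± 0.893 CPM. From EV untreated to EV auxin the log2 ratio of the sums was 0.58 for anterior, 0.31 for central and 0.58 for posterior members. From FL auxin to H373R auxin the posterior sums did not overlap between groups and the anterior and central sums did. Without Hoxd1 the anterior sums did not overlap either (2.48 to 3.21 CPM in FL auxin, 3.58 CPM or more in H373R auxin). Without Hoxc13 the posterior sums stayed apart (6.22 to 6.25 against 6.75 to 7.81 CPM). Hoxb13 and Hoxc13 held most of the posterior sum (means of 3.55 and 4.47 CPM in FL auxin, 4.79 and 5.24 in H373R auxin). Means of Hoxa10, Hoxa11, Hoxa13, Hoxd11 and Hoxd12 were lower in H373R auxin. A posterior sum without both Hoxb13 and Hoxc13 was not made.

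Of the 25 members too low to test, ratios of counts per sequenced read are given with exact 95% intervals, which cover counting error only. They come from 150 comparisons of 25 genes, with no adjustment for their number, and the genes named are those whose interval leaves out a ratio of 1. Hoxa2, an anterior gene, had 0, 2 and 5 counts in EV untreated and 8, 11 and 10 in H373R auxin, a ratio of 4.57 (1.96 to 12.4). Hoxa4 had 3, 1 and 1 counts in EV untreated and 7, 4 and 5 in FL auxin, a ratio of 4.63 (1.62 to 16.1). In H373R auxin Hoxa4 had 5 to 6 counts per library.

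Hoxa10 had 3 and 2 counts in EV auxin, 5, 5 and 9 in FL auxin and 1, 4 and 3 in H373R auxin. Its ratio was 2.94 (1.06 to 10.1) for FL auxin to EV auxin and 0.321 (0.122 to 0.768) for H373R auxin to FL auxin. Hoxa13, the last gene of cluster A, had no count in either EV auxin library and 4, 2 and 5 counts in FL auxin, at least 1.35-fold higher when EV auxin is set to 3 counts in each library. It had 2 to 5 counts per library in H373R auxin as well, and 0 to 2 in EV untreated. Hoxd9 had 3, 1 and 2 counts in EV untreated and 8, 3 and 3 in FL auxin, a ratio of 3.37 (1.22 to 10.7). Hoxc12 had 3 counts in each EV auxin library and 7, 13 and 6 in H373R auxin, a ratio of 2.56 (1.03 to 7.61). Hoxc11 had 1 count in all EV untreated libraries and 1, 5 and 2 in H373R auxin, a ratio of 8.82 (1.18 to 392). With no filter on low counts, edgeR called 4 of these low members in 1 comparison each, Hoxa13 in FL auxin against EV auxin, Hoxa4 and Hoxa10 in FL auxin against EV untreated, and Hoxa2 in H373R auxin against EV untreated.

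Genes known to act on the clusters were read from lists chosen for this purpose. Counts called on these lists stand beside the shares of all tested genes called in either direction. Those were 20.7% in EV auxin against EV untreated, and 24.5% in FL auxin and 21.7% in H373R auxin against EV auxin. In H373R auxin against FL auxin the share was 5.96%. The caudal genes Cdx1, Cdx2 and Cdx4 encode homeodomain factors that activate trunk and posterior Hox genes. Cdx1 had 5.77 to 7.22 CPM in EV untreated, 13.3 and 14.2 in EV auxin, 19.0 to 22.6 in FL auxin and 19.8 to 20.7 in H373R auxin. It rose by 1.12 ± 0.109 on the log2 scale in EV auxin (edgeR adjusted p = 2.85e-06) and, over EV auxin, by 0.59 ± 0.101 in FL auxin (0.000716) and 0.55 ± 0.0990 in H373R auxin (0.00132).

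Cdx2 had 0.684 and 0.830 CPM in EV auxin, 2.48, 1.37 and 2.09 CPM in FL auxin and 0.602, 1.04 and 0.885 CPM in H373R auxin. It was 1.41 ± 0.335 higher in FL auxin than in EV auxin (edgeR adjusted p = 0.00669) and 1.28 lower in H373R auxin than in FL auxin (log2 fold change -1.28 ± 0.282, adjusted p = 0.0126), so in these libraries it was highest in FL auxin, as were Hoxa7 and Hoxa11. T, a primitive streak gene, also differed between them (-1.15 ± 0.219, adjusted p = 0.00487). Whether these genes have a part in the Hox values was not tested. Of the 6 caudal and ParaHox genes 4 were tested, with 1 called higher in EV auxin against EV untreated, 2 higher in FL auxin and 1 higher in H373R auxin against EV auxin, and 1 lower in H373R auxin against FL auxin. Cdx2 is also on the list of trophoblast markers below, and T on that of primitive streak markers.

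Retinoic acid activates anterior Hox genes, and of 17 tested genes of its synthesis and response 4 were called higher and 1 lower in EV auxin against EV untreated. Stra8, a gene of germ cells induced by retinoic acid, rose by 0.49 ± 0.0640 (edgeR adjusted p = 5.21e-05), Stra6, a receptor for retinol uptake, by 1.00 ± 0.159 (0.000337) and Aldh1a2, which makes retinoic acid, by 0.90 ± 0.151 (0.000551). Against EV auxin, 2 were higher and 3 lower in each of FL auxin and H373R auxin. Among these Cyp26a1, which degrades retinoic acid, rose by 1.46 ± 0.260 in FL auxin (0.000925) and by 1.22 ± 0.258 in H373R auxin (0.00376), while Aldh1a2 fell by 1.08 in FL auxin (log2 fold change -1.08 ± 0.164, adjusted p = 0.000294). Aldh1a2 was also lower in H373R auxin, with log2 fold changes of -0.73 to -0.56 under the alternatives described below. Stra8 fell in both, with log2 fold changes of -0.82 ± 0.0654 in FL auxin (adjusted p = 8.36e-07) and -0.53 ± 0.0642 in H373R auxin (9.44e-05).

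All 22 genes listed as Polycomb repressors were tested, and 2 were called higher and 1 lower in EV auxin against EV untreated, 1 and 3 in FL auxin against EV auxin, and 1 and 5 in H373R auxin against EV auxin. Over all tested genes 20.7%, 24.5% and 21.7% were called in these comparisons, in either direction. Suz12 and Jarid2, subunits of Polycomb repressive complex 2, fell in FL auxin (log2 fold change -0.37 ± 0.0746 and -0.31 ± 0.0460, edgeR adjusted p = 0.00240 and 0.000271) and in H373R auxin (-0.50 ± 0.0743 and -0.50 ± 0.0458, adjusted p = 0.000392 and 1.26e-05). Eed, another subunit of the same complex, rose in FL auxin (0.26 ± 0.0546, adjusted p = 0.00341). Of 12 trithorax and MLL genes, which keep Hox genes active, 0 were higher and 2 lower in EV auxin against EV untreated, 2 and 2 in FL auxin against EV auxin, and 0 and 7 in H373R auxin against EV auxin. Wdr5, a subunit of these complexes, rose in FL auxin (0.18 ± 0.0480, adjusted p = 0.0127). Kmt2a, the methyltransferase MLL1, fell by 0.68 in H373R auxin (-0.68 ± 0.0860, adjusted p = 0.000120) and by 0.51 in FL auxin (-0.51 ± 0.0870, adjusted p = 0.000709).

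Of 9 TALE cofactors, which bind DNA with Hox proteins, 0 were higher and 2 lower in EV auxin against EV untreated, with Pknox2 at -0.85 ± 0.170 (edgeR adjusted p = 0.00223). Of 24 genes flanking the clusters 23 were in the table and 20 were tested, with 1 higher and 2 lower in that comparison, where 20.7% of all tested genes were called, 4 and 4 in FL auxin against EV auxin, and 2 and 5 in H373R auxin against EV auxin. Calcoco2, beside cluster B, rose by 0.54 ± 0.0825 (0.000232) and then fell by 0.92 from EV auxin to FL auxin (-0.92 ± 0.0862, adjusted p = 4.34e-06). It was also lower in H373R auxin than in EV auxin, with log2 fold changes of -0.72 to -0.58 under the alternatives described below. Evx2, next to cluster D, had no count in any library. Of 14 noncoding and antisense RNAs named for the clusters 11 were in the table and 2 were tested. Hotair had no count in any library, and Hotairm1 was 1.06 ± 0.294 higher (0.00855) and Halr1 0.27 lower (-0.27 ± 0.0815, adjusted p = 0.0133) in H373R auxin against EV untreated.

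The levels of markers of other cell types differed by list. The 6 endoderm markers summed to 18.0 to 20.5 CPM in EV untreated, 22.8 and 23.9 in EV auxin, 53.0 to 53.8 in FL auxin and 38.2 to 40.6 in H373R auxin. Of the 6, 5 were called higher in FL auxin and in H373R auxin against EV auxin, beside 24.5% and 21.7% of all tested genes in either direction. The 8 primitive streak and mesoderm markers summed to 10.7 to 11.7, 14 and 14.4, 16.0 to 18.9 and 16.2 to 18.2 CPM in the 4 groups, with Msgn1 at 0 in EV auxin and FL auxin. The 6 neural markers summed to 225 to 266, 269 and 272, 208 to 238 and 233 to 237 CPM, with Neurog2 at 0 in H373R auxin. The 6 trophoblast markers summed to 163 to 174, 161 and 163, 152 to 168 and 167 to 172 CPM, and the 6 fibroblast or feeder markers to 60.3 to 68.7, 58.1 and 62.8, 79.6 to 95.2 and 75.4 to 82.3 CPM. In FL auxin against EV auxin, 2 of 7 tested primitive streak and mesoderm markers were called higher and 0 lower. There 1 of 4 neural markers was higher and 3 lower, 3 of 5 trophoblast markers higher and 1 lower, and 4 of 5 fibroblast or feeder markers higher and 0 lower. In H373R auxin against EV auxin the counts higher and lower were 1 and 0, 1 and 2, 2 and 0, and 2 and 0. The part of these cell types in the Hox values was not tested.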

How the data were processed

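RNA-seq values were used as the authors deposited them, as read counts and as TPM, both by gene symbol. Per the submitters' processing notes, featureCounts of Subread 2.0.3 and DESeq2 were used with mm10 (GRCm38). The aligner, annotation release and strand setting are not given in the sources used here. Per the labels' protocols, libraries were made with a directional kit, without molecular identifiers. The intervals of count ratios cover counting error only.

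Counts of 11 libraries were fitted with edgeR 4.0.16 (R 4.3.3, TMM scaling, filterByExpr with a minimum of 10 counts, 1 mean per group, quasi-likelihood test, Benjamini-Hochberg adjustment over 16420 of 55228 genes). SE is the size of the log2 fold change over the square root of F. CPM are TMM-scaled, and sums have no test. DESeq2 1.42.0, limma 3.58.1 on log2(TPM + 1) and log2(TPM + 0.1), other scalings and filters, a replicate block and leaving out each library were alternatives, and removal of a GC trend was added after seeing the data. Positions are from GENCODE M21. The script was tested on simulated data. Of the 39 genes that match, 38 were described, 1 is not reported here, and up to 3 genes per list and comparison, taken in order of adjusted p among the called, were named, besides Ctcf and genes at 0. The members and lists were chosen with earlier results of these data known.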

Additional observations from a re-analysis of the deposited data

How the results depend on the processing

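Of 28 called Hox fold changes, 0 reversed under the alternatives run, which gave 526 values still past the threshold and 61 that were not. Of the 28, 17 passed in each alternative that gave a value, 16 of them against EV untreated. The other is Hoxa11 in FL auxin against EV auxin, which gave 17 values and none without FL auxin replicate 2 or 3, so its passing is partly fixed by the count filter. Hoxa11 in FL auxin and Hoxd8 in FL auxin and in H373R auxin, each against EV untreated, also gave 17 values. Hoxd8 too reached the count minimum in 2 FL auxin libraries alone, so the same limit holds for these calls. Hoxb4 reached the minimum in 3 H373R auxin, 1 FL auxin and 0 EV untreated libraries. Hoxa3 reached it in 2 H373R auxin, 2 FL auxin and 0 EV untreated libraries. Their calls against EV untreated are thus of genes that the filter kept through the higher groups. Low counts, 2 EV auxin libraries and EV untreated replicate 1 limit the remaining calls, and the cause of the changes below was not tested beyond fewer samples or genes.

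Over all genes, EV auxin against EV untreated had 3392 calls, 2016 with only the libraries compared and 1939 at an adjusted p under 0.01, and 1569 to 5444 when 1 library was left out. FL auxin against EV auxin had 4016, 2169 at 0.01 and 1879 to 5800 on leaving out 1 library. H373R auxin against EV auxin had 3570, 5909 with only the libraries compared, 1843 at 0.01, 2335 with limma without a TPM filter and 1502 to 5397. H373R auxin against FL auxin had 979, 1815 with only the libraries compared, 436 at 0.01, 588 with limma without a TPM filter, 2028 with the GC trend removed and 510 to 2323. FL auxin against EV untreated had 6052, and 3980 at 0.01.

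Hox calls in EV auxin against EV untreated were 3, 5 with no count filter or with the GC trend removed, 1 with 10 counts in every library or with limma at either pseudocount or without a TPM filter, 0 with only the libraries compared or at 0.01, and 0 to 5 on leaving out 1 library. In FL auxin against EV auxin they were 2, 0 with DESeq2, with 10 counts in every library or with limma at either pseudocount, 4 with no count filter, 3 with only the libraries compared, with limma without a TPM filter or with the GC trend removed, 1 at 0.01, and 0 to 4 on leaving out 1 library. At an unadjusted p under 0.05 edgeR had 7 there, DESeq2 3 and limma 2 with a pseudocount of 1 and 3 with 0.1. In H373R auxin against EV auxin they were 3, 2 with limma at either pseudocount, 1 without its TPM filter or at 0.01, 5 with the GC trend removed, and 0 to 5 on leaving out 1 library. In H373R auxin against FL auxin they were 0, 1 with only the libraries compared, and 0 to 1 on leaving out 1 library. In FL auxin against EV untreated they were 9, 4 with 10 counts in every library or with limma at either pseudocount, 5 with only the libraries compared, and 6 to 10. In H373R auxin against EV untreated they were 11, 5 with 10 counts in every library, 7 with only the libraries compared or with limma at either pseudocount, and 8 to 12.

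The log2 ratio of summed CPM from EV untreated to EV auxin, without the member with the most counts, was 0.84 for cluster A, 0.71 for B, 0.44 for D, 0.95 for anterior and 0.50 for central genes, and 0.39 for central genes as a sum of TPM. On leaving out 1 library it was 0.24 to 0.38 for central genes. From FL auxin to H373R auxin it was 0.49 for B, 0.41 for anterior and -0.33 for central genes without that member. Signs turned for central genes as a sum of TPM (0.0198) or without FL auxin replicate 2 (-0.16 to 0.0206), and for cluster D without H373R auxin replicate 2 (-0.25 to 0.0059).

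Same-numbered libraries of different groups had deviations correlated at -0.087 to 0.282, and differently numbered ones at -0.197 to 0.134. Whether the numbers mark a shared batch was not tested. With the replicate block the Hox calls were 4, 2, 3, 0, 9 and 10 in the order of the 6 comparisons above. Of the 11 libraries, 6 correlated best with their own number.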
